A study of Homo sapiens with 3 samples.

Results

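Actin, vimentin and keratin genes were followed through RNA-seq of human embryonic kidney cells exposed to the flame retardant BDE-209. The group holds 10 RefSeq transcripts of the 25443 with a value in at least 1 sample. It was picked by identifier: the actins ACTB and ACTG1, the actin monomer binders PFN1, CFL1, TMSB4X and TMSB10, the myosin light chain MYL6, and the intermediate filament proteins VIM, KRT8 and KRT18. The choice was made with the RPKM values of these same samples known, so all levels and ratios of these transcripts are descriptions and carry no test.

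The cells were the HEK 293 line of the labels, named HEK293T in the study's methods, a line from human embryonic kidney that in its T form carries the SV40 large T antigen. The control was kept in normal medium, the DMSO sample in medium with 1 mM of dimethyl sulfoxide, and the BDE-209 sample in medium with 1 µM of BDE-209 (decabromodiphenyl ether) and 1 mM of DMSO, each for 48 h. Each condition had 1 sample. Differences between conditions and differences between single cultures or libraries therefore cannot be told apart, and no p-value is given.

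PolyA RNA was sequenced from 1 end for 49 bases, and the values are RPKM, the reads of a transcript scaled to its length and to the reads of the sample. The RPKM values step in whole reads. From these steps, totals of 4843624 reads were recovered for the control, 4782043 for DMSO and 4676793 for BDE-209, with the reads behind each value. The study reports more uniquely mapped reads than this for every sample, and in its numbers BDE-209 lies above DMSO. Why the totals differ was not tested, and the ratios were not rescaled to the study's totals. An interval below is a 95% interval that covers the counting error of these reads only. RPKM is a share of the library, so fewer cells that express a transcript and less of its RNA per cell cannot be told apart. Of the 8 embryonic kidney and neural genes listed as markers of HEK293 lines, the neurofilament genes NEFL and NEFM and the internexin gene INA lay between 24.4 and 54.1 RPKM in the 3 samples. The others were low or absent: GATA3 had at most 4.18 RPKM, NES 1.57, LHX1 1.43 and WT1 0.0877, and the kidney regulator PAX2 was at 0 in each sample. The name of the line comes from the labels. Only NEFL, NEFM and INA, 3 of the 8 markers, were at a clear level, and these values do not show a kidney origin. The epidermal keratins KRT1, KRT5 and KRT14 were at 0. Among blood markers, HBA1 and LYZ had between 2.23 and 6.26 RPKM, and the defining markers PTPRC, CD3E and HBB were at 0.

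Actin filaments grow from monomers that carry ATP. Profilin (PFN1) feeds monomers to growing ends, cofilin (CFL1) severs old filaments, and the β-thymosins (TMSB4X, TMSB10) hold monomers in reserve. MYL6 is the essential light chain of non-muscle myosin II, the motor that pulls on actin filaments. Vimentin (VIM) forms the intermediate filaments of mesenchymal and many cultured cells, while KRT8 and KRT18 pair with each other to form those of simple epithelia. Messages of this kind are among the most abundant of cultured cells, and several of the genes have many processed pseudogenes, intron-less copies elsewhere in the genome.

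These copies bear on what a uniquely mapped read can count. The study aligned reads to the genome and kept those with a single place. For each gene, the MANE Select transcript of GENCODE (on GRCh37, the same assembly as hg19) was therefore taken apart into all windows of 49 bases, and each window was looked up in the whole genome on both strands for exact matches. The coding sequences of both thymosins, without the stop codon, are shown because they differ most in this respect. Both genes lie on the plus strand, TMSB4X at chrX:12994381-12994927 and TMSB10 at chr2:85133142-85133544 (start to end of the coding part, with 1 intron inside). Capitals mark bases that lie in at least 1 window that is within a single exon and occurs once in the genome.
TMSB4X: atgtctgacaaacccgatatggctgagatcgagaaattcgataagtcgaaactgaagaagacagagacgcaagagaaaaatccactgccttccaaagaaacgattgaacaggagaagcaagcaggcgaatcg
TMSB10: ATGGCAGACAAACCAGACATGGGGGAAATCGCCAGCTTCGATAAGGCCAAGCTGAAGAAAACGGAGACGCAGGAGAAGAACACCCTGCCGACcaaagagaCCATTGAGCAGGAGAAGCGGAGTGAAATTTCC
None of the 132 coding bases of TMSB4X lay in such a window, against 124 of the 132 of TMSB10. Over the whole transcript, 20.3% of the TMSB4X windows within 1 exon occurred once (97 of 478), and all of these lay outside the coding sequence. For TMSB10 it was 97.5% (309 of 317). The copies of TMSB4X lay in the pseudogenes TMSB4XP4 and TMSB4XP2 and inside the genes CCSER1, BCAS4, CCDC30 and COLEC11.

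The 2 actins could be told apart. The coding sequences of ACTB and ACTG1 were identical at 91.3% of 1125 bases, and their longest shared run was 59 bases. The first 60 coding bases are shown because both proteins differ at their start. Capitals mark the 10 bases that differ, and both genes are on the minus strand of GRCh37.
ACTB, chr7:5569229-5569288: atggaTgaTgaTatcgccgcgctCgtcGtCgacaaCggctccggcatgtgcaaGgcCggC
ACTG1, chr17:79479321-79479380: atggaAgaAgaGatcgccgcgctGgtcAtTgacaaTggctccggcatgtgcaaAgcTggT
All 60 bases lay in unique windows in both genes. Of the windows within 1 exon, 81.8% occurred once for ACTB and 90.9% for ACTG1. The copies of ACTB included the pseudogene ACTBP2 and the POTE genes POTEI and POTEF, which carry an actin-like part.

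**Figure D1:**
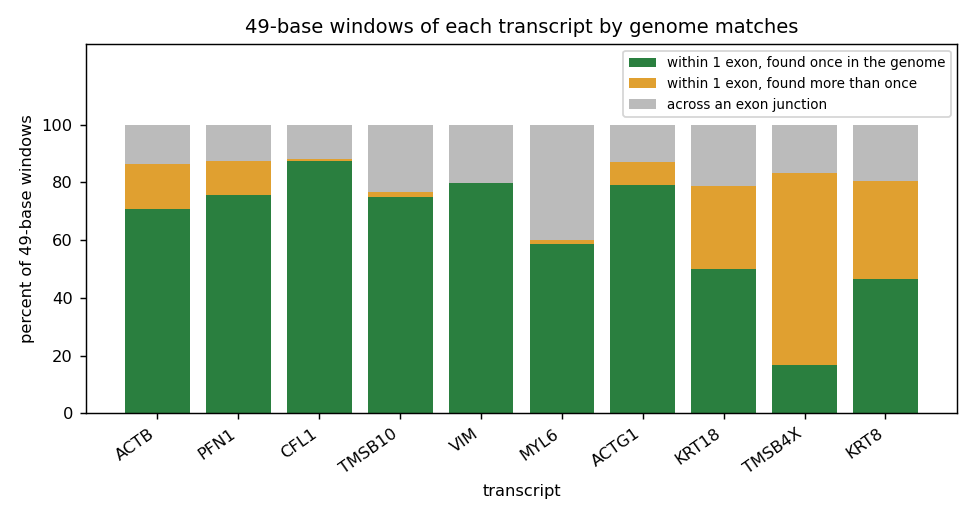
Percent of the 49-base windows of each transcript (vertical axis) for the 10 genes (horizontal axis, in order of mean RPKM), split by whether a window lies within 1 exon and occurs once in the genome (green), within 1 exon and more than once (orange), or across an exon junction (grey). Green reaches 87.4% for CFL1 and 16.9% for TMSB4X, with KRT8 at 46.4% and KRT18 at 683 of its 1365 windows.

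The keratins came next to TMSB4X. Windows within 1 exon occurred once in 57.6% of KRT8 and 63.4% of KRT18, and exact matches lay in 31 annotated pseudogenes for KRT8 and 43 for KRT18, 29 and 41 of them named after these genes. PFN1 had 86.6%, and its other copy was PFN1P1. CFL1 (99.3%), MYL6 (97.7%) and VIM (100%) had almost no second place. Windows across an exon junction have no unbroken place at their own gene. They made up 39.8% of the windows of MYL6, whose 7 exons are short, and from 12.0% (CFL1) to 23.2% (TMSB10) of the others. How the study treated reads across junctions is not given in the sources used here, and the part of these windows in the RPKM values was not tested.

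The levels of the transcripts spanned a wide range. ACTB (NM_001101, chr7:5566779-5570232, minus strand), the cytoplasmic β-actin, had 1525 RPKM in the control, 1476 in DMSO and 1385 in BDE-209, from 13678, 13075 and 11999 reads. It ranked 35 among all transcripts by mean RPKM and held 37.4%, 37.3% and 36.9% of the summed RPKM of the 10 transcripts. The control was highest and BDE-209 lowest. ACTG1 (NM_001614, chr17:79476997-79479825, minus strand), the γ-actin, was far lower with 58.3 RPKM in the control, 61.7 in DMSO and 56.7 in BDE-209, from 566, 591 and 531 reads. ACTB was thus 26.2, 23.9 and 24.5 times as high as this ACTG1 transcript per length. The other ACTG1 transcripts in the lists, NM_001199954 and the non-coding NR_037688, had 41.2 and 16.2 RPKM in the control. ACTB had no other transcript in the lists. How reads were shared among the ACTG1 transcripts is not given in the sources used here. The ratio therefore compares single transcripts, and the level of ACTG1 as a whole gene was not tested.

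Among the monomer binders, PFN1 (NM_005022, chr17:4848947-4851825, minus strand) had 809 RPKM in the control, 773 in DMSO and 724 in BDE-209, from 3321, 3130 and 2869 reads. It followed the order of ACTB, and the ratio of ACTB to PFN1 stayed between 1.88 and 1.91. CFL1 (NM_005507, chr11:65622144-65625651, minus strand) had 562, 573 and 550 RPKM in the same order, from 3429, 3451 and 3242 reads. DMSO was highest here, and all 3 intervals overlapped. TMSB10 (NM_021103, chr2:85132780-85133795, plus strand) had 502, 487 and 476 RPKM, from 1172, 1122 and 1073 reads, again with overlapping intervals. TMSB4X (NM_021109, chrX:12993229-12995342, plus strand) had 12.9 RPKM in the control, 18.8 in DMSO and 19.2 in BDE-209, from only 41, 59 and 59 reads. It was the one transcript of the group that was lowest in the control, and its intervals (9.25 to 17.5 RPKM in the control, 14.3 to 24.2 in DMSO and 14.6 to 24.8 in BDE-209) overlapped.

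The myosin light chain MYL6 (NM_021019, chr12:56552143-56555363, plus strand) had 257 RPKM in the control, 226 in DMSO and 233 in BDE-209, from 1031, 894 and 902 reads. The control was higher than both DMSO-containing samples. Its other RefSeq transcript, NM_079423, ran in parallel with 276, 241 and 249 RPKM. Isoforms of a gene share exons, so this is no second measurement.

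VIM (NM_003380, chr10:17270240-17279592, plus strand) had 299 RPKM in the control, 296 in DMSO and 261 in BDE-209, from 3116, 3043 and 2626 reads. Control and DMSO overlapped in their intervals, and BDE-209 (251 to 271 RPKM) lay below both. KRT18 (NM_000224, chr12:53342902-53346690, plus strand) had 47.5, 42.7 and 40.03 RPKM, from 342, 303 and 278 reads, and its second transcript NM_199187 had 48.1, 43.6 and 40.7. KRT8 (NM_002273, chr12:53290975-53298860, minus strand) was the lowest of the group with 6.19, 6.38 and 5.93 RPKM, from 54, 55 and 50 reads. KRT18 was 7.69, 6.69 and 6.75 times as high as its partner KRT8, and VIM was between 6.29 and 6.93 times as high as KRT18. The other epithelial markers were low or absent, with CDH1 between 2.09 and 2.44 RPKM and KRT19 at 0. Among the mesenchymal markers, CDH2 (N-cadherin) lay between 42.0 and 43.9 RPKM and FN1 (fibronectin) below 0.492.

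**Figure D2:**
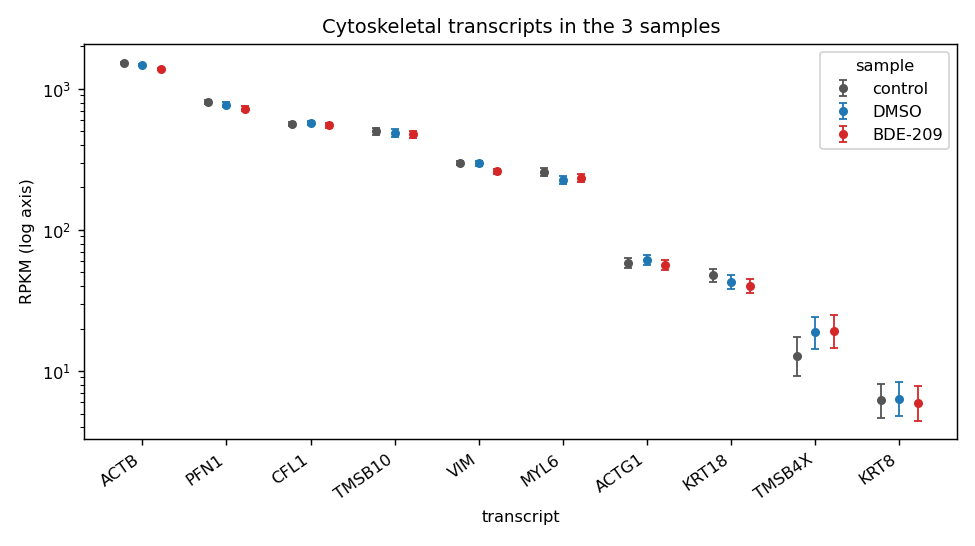
RPKM (vertical log axis) of the 10 transcripts (horizontal axis) in the control (grey), DMSO (blue) and BDE-209 (red) samples; points are the deposited values and bars are exact 95% Poisson intervals of the recovered reads. ACTB stands at 1385 to 1525 RPKM and KRT8 at 5.93 to 6.38, and the spread between genes is far wider than that between samples.

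The order of the levels was the same in the 3 samples, from ACTB over PFN1, CFL1, TMSB10, VIM, MYL6, ACTG1, KRT18 and TMSB4X to KRT8. The counting intervals of neighbours in this order overlapped in none of the samples. The order changed when the reads were set against the windows that occur once in the genome, a measure chosen after seeing the data. In the control, ACTB then had 11.0 reads per unique window, PFN1 5.79, TMSB10 3.79, CFL1 3.28, MYL6 2.66 and VIM 1.86. KRT18 had 0.501, TMSB4X 0.423, ACTG1 0.382 and KRT8 0.0670. On these point values TMSB4X moved past ACTG1, and in DMSO and BDE-209, at 0.608 in both, also past KRT18 (0.444 and 0.407). TMSB4X rests on 41, 59 and 59 reads, and no counting interval was set on this measure. For ACTG1 only the reads of NM_001614 were used, and its other transcripts had 424 and 146 reads in the control. The place of ACTG1 as a whole gene was therefore not tested. KRT8 stayed lowest, and this ACTG1 transcript stayed far below ACTB. These ratios take the windows of a current transcript for those the authors counted on, whose lengths, recovered from the RPKM steps, differed from the current ones by -3 bases (VIM) to 119 bases (MYL6).

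The comparison of DMSO with the control asks what the solvent alone does. ACTB and MYL6 were lower in DMSO by more than counting error, with log2 ratios of -0.05 (interval -0.08 to -0.01) and -0.19 (-0.32 to -0.06). TMSB4X, the β-thymosin of few unique windows, was higher with a log2 ratio of 0.53, but its interval from -0.06 to 1.16 held 0. In all, 6 of the 10 transcripts were lower, as were 48.5% of all transcripts at 10 RPKM or more, with a median log2 ratio of -0.03. Ratios of RPKM have 0.5 added to each value, which changes the abundant transcripts hardly at all, while the intervals come from the reads.

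As a limit of size, a log2 ratio of 0.32 in either direction was used. TMSB4X was the only transcript past it (1 of 10). Among the 8060 transcripts with a mean of at least 10 RPKM, which include all of the group but KRT8, 3.77% were past the limit, 1.82% upward and 1.95% downward. None of the group passed the 2-fold limit of the study, which 0.0868% of the 8060 passed. The study also set a limit from the tool NOISeq, which was not applied here, so these shares are not its calls. An interval wholly below 0 was found for 2 of the 10, against 5.15% of all, and one wholly above 0 for none, against 6.49%. Counting intervals narrow with reads, and the group is read more deeply than most, so the 795 transcripts of at least 100 RPKM give a closer background. It is still not matched on depth, here and in the comparisons below. The median of such transcripts was 1750 reads in the control. ACTB had 13678, CFL1 3429, PFN1 3321 and VIM 3116, while TMSB10 had 1172 and MYL6 1031. Of the 795, 11.8% had an interval wholly below 0 and 11.7% wholly above, and of the 6 members of the group at that level 2 had one below. The median log2 ratio of the 8060 transcripts was 0.00. That of the 795 was -0.01, and 54.8% of them were below 0.

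The comparison of BDE-209 with DMSO asks what the compound adds to its solvent. VIM was lower in BDE-209 with a log2 ratio of -0.18 (interval -0.26 to -0.10), the largest difference of the group in this comparison. PFN1 (-0.09, -0.17 to -0.02) and ACTB (-0.09, -0.13 to -0.06) were also lower by more than counting error. CFL1 had a ratio of -0.06 with an interval that just held 0 (-0.13 to 0.01), and ACTG1 one of -0.12 (-0.29 to 0.05). MYL6 (0.04) and TMSB4X (0.03) were the 2 transcripts with a ratio above 0, and both intervals held 0.

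No transcript of the group was past the log2 limit of 0.32 (0 of 10), as 2.85% of the 8060 were, 1.17% upward and 1.69% downward. The 2-fold limit was passed by none of the group and by 0.0372% of the 8060. With 8 of 10 below 0, the median log2 ratio was -0.09, while 51.7% of the 8060 lay below 0 and their median was 0.00. Of the 795 at 100 RPKM or more, 58.1% lay below 0, with a median of -0.01. An interval wholly below 0 was found for 3 of the 10, against 3.75% of all, and for 3 of the 6 at 100 RPKM or more, against 9.81% of the 795. One wholly above 0 was found for none of the group, against 3.54% of all and 4.40% of the 795. The intervals of TMSB4X (-0.51 to 0.58) and KRT8 (-0.69 to 0.47) extend past the limit of 0.32 on both sides, so a difference of that size was not detectable at this depth.

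The comparison of BDE-209 with the control takes solvent and compound together. Several abundant transcripts were lower in BDE-209, namely VIM with a log2 ratio of -0.20 (interval -0.27 to -0.12), PFN1 with -0.16 (-0.23 to -0.09), MYL6 with -0.14 (-0.27 to -0.01) and ACTB with -0.14 (-0.17 to -0.10). KRT18 had the largest negative ratio, -0.25 (-0.48 to -0.02), from far fewer reads. CFL1 (-0.03, -0.10 to 0.04) and TMSB10 (-0.08, -0.20 to 0.04) had intervals that held 0, as had ACTG1 (-0.04) and KRT8 (-0.06). TMSB4X stood apart at 0.56 (-0.02 to 1.19).

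Of the 10 transcripts, 9 were below 0, with a median log2 ratio of -0.11, and 49.8% of the 8060 were below 0, with a median of 0.00. TMSB4X alone was past the log2 limit of 0.32, against 3.95% of the 8060, 1.65% upward and 2.30% downward. The 2-fold limit was passed by none of the group and by 0.0620% of the 8060. An interval wholly below 0 was found for 5 of the 10 (5.99% of all), and for 4 of the 6 at 100 RPKM or more (17.5% of the 795). One wholly above 0 was found for none of the group, against 6.44% of all and 9.31% of the 795. Abundant transcripts as a class leaned the same way, since 64.2% of those 795 were below 0 with a median of -0.03. The deposited RPKM totals also differed, with 534350.6 in the control, 529809.5 in DMSO and 525033.9 in BDE-209, and the share of the 10 transcripts in them was 0.764%, 0.747% and 0.715%. The 3 comparisons use each sample in 2 of them, so they are not independent of each other.

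**Figure D3:**
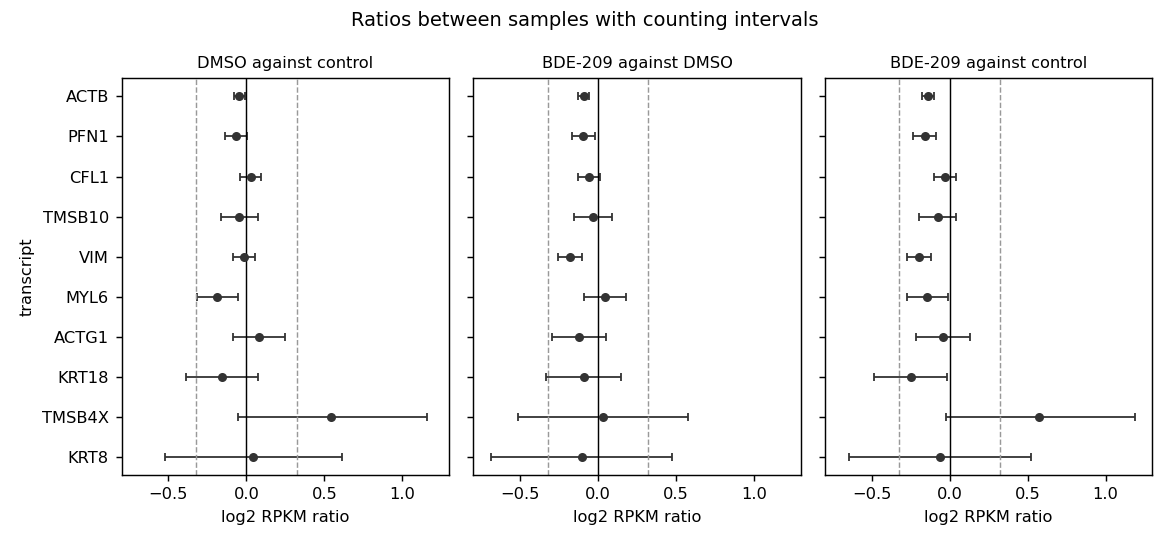
Log2 ratio of RPKM without addition (horizontal axes) for the 10 transcripts (vertical axis) in the 3 comparisons; bars are 95% Clopper-Pearson intervals of the read split, the solid line marks 0 and the dashed lines a log2 ratio of 0.32 in size. VIM, PFN1 and ACTB lie left of 0 with their whole interval in the middle and right panels, and TMSB4X lies past the dashed line in the left and right panels with an interval that holds 0.

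The wider actin machinery was looked up by symbol from gene lists, and the counts cover transcripts with a mean of at least 10 RPKM, where isoforms of 1 gene share reads. The Arp2/3 complex, which starts branched filaments, had 10 such transcripts of 7 genes. In BDE-209 against the control all 10 were below 0 with a median log2 ratio of -0.03, while 49.8% of the 8060 and 64.2% of the 795 at 100 RPKM or more were. The counting interval of each of the 10 held 0, and the 3 pairs of isoforms among them share reads. Recovered reads are lower bounds, so some of these intervals can be too wide. In the control, ARPC2 had 259 recovered reads at 150 RPKM for NM_005731 and 1036 at 146 RPKM for NM_152862. The subunit ARPC5L at -0.35 (interval -0.73 to 0.01) was past the limit of 0.32, as were 3.95% of the 8060. ACTR2 and ARPC2, its most abundant subunits, had ratios of -0.05 (NM_005722) and -0.03 (NM_152862). Against DMSO, the same list had 7 of 10 below 0, beside 51.7% of the 8060 and 58.1% of the 795, and none past the limit of 0.32.

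For turnover, capping and monomer binding, 15 transcripts of 11 genes were at that level, and none passed the limit of 0.32 in any comparison. The second profilin, PFN2 (NM_002628), had 126, 118 and 133 RPKM in control, DMSO and BDE-209. Its ratio of 0.17 against DMSO (interval 0.05 to 0.30) was opposite in sign to that of PFN1. LIMK1, a kinase that inactivates cofilin, had -0.21 in DMSO against the control, with an interval from -0.47 to 0.04.

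Of the 24 transcripts of 16 genes for bundling, crosslinking and membrane linking, none passed the limit of 0.32, and the medians were 0.05 for DMSO against the control, -0.04 for BDE-209 against DMSO and 0.01 for BDE-209 against the control. The most abundant, TAGLN2 (transgelin 2), had 182, 179 and 174 RPKM. ACTN4 (α-actinin 4) had 92.9, 97.9 and 87.8 RPKM, with a ratio of -0.16 against DMSO (interval -0.25 to -0.06). VCL (vinculin, NM_014000) was higher in DMSO than in the control at 0.18 (interval 0.07 to 0.29), opposite in sign to ACTB. CNN2 (calponin 2, NM_201277) had -0.32 in BDE-209 against the control (interval -0.60 to -0.05).

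The tropomyosins and heavy and light chains of non-muscle myosin II had 8 transcripts of 6 genes at that level and none past the limit of 0.32. MYH9 and MYH10, the heavy chains that MYL6 binds, lay at -0.02 and -0.05 in BDE-209 against the control, with intervals that held 0. MYL12A, a regulatory light chain, had 43.4, 36.3 and 44.2 RPKM, lowest in DMSO. TPM4 (NM_003290) had 101.004, 107 and 96.9 RPKM, with a ratio of -0.14 against DMSO (interval -0.25 to -0.02).

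The muscle actins were near the floor of the lists. ACTA1 had 1.78, 1.247 and 0.850 RPKM from 13, 9 and 6 reads, ACTA2 (NM_001613) 2.77, 3.10 and 3.32 RPKM, and ACTC1 at most 1 read in a sample. The summed level of the 6 epithelial markers was 59.2, 53.4 and 49.7 RPKM, mostly that of KRT18 itself. Of the 8 other keratins, 3 had any read, and KRT10 was the highest with 3.53, 4.55 and 3.66 RPKM. Lamins and neuronal filament proteins made up the rest of the intermediate filaments, with 7 transcripts of 5 genes and none past the limit of 0.32. In BDE-209 against the control, LMNB1 (NM_005573) had -0.11 (interval -0.2141 to -0.0007) and INA -0.21 (-0.40 to -0.03). NEFM (NM_001105541) had 0.12 (-0.04 to 0.28). The other transcripts of LMNB1 (NM_001198557, -0.09) and NEFM (NM_005382, 0.07) had intervals that held 0.

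**Figure D4:**
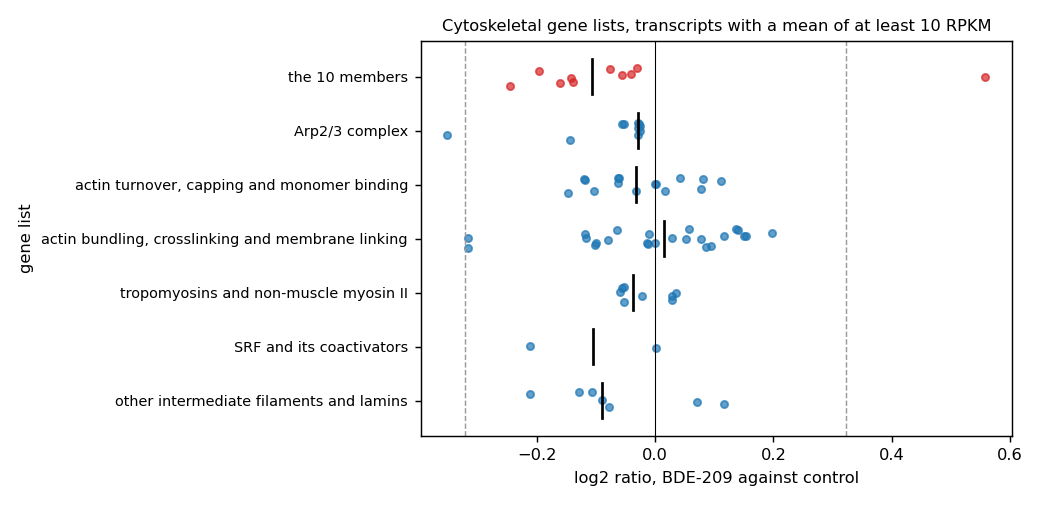
Log2 ratio of BDE-209 against the control (horizontal axis) for the 10 transcripts (red) and for transcripts of the other cytoskeletal lists with a mean of at least 10 RPKM (blue), 1 point a transcript and 1 row a list; black bars are medians and dashed lines a log2 ratio of 0.32 in size. The median of the red points is -0.11, with TMSB4X at 0.56, and the medians of the Arp2/3 and turnover rows are both -0.03.

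Serum response factor (SRF) is known to drive actin genes through the CArG box of their promoters, together with coactivators that sense free actin monomers. SRF itself had 22.9, 23.1 and 22.9 RPKM, and its ratio of 0.00 in BDE-209 against the control had an interval from -0.19 to 0.19. The coactivator MKL1 had 16.4, 15.6 and 14.1 RPKM, and MKL2 9.16, 10.3 and 10.4. Among the immediate targets of SRF, JUNB, IER2 and CYR61 had at most 8.21 RPKM in any sample. Promoter windows from RefSeq (GRCh38.p14, 250 bases before to 50 after the start) were matched for 8 of the 10 genes, all but ACTB and KRT18. A CArG box, whose reverse complement is again a CArG box, stood in 1 of the 8, that of ACTG1, and in 1.29% of all 35116 windows. It starts 94 bases before the start site. The stretch around it, chr17:81512854-81512923 on the minus strand, is shown with the box in capitals.
ACTG1 promoter: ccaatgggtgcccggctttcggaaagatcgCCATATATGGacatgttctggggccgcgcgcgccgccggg
A match describes these letters and does not show binding. ACTG1 was among the transcripts whose intervals held 0 in each comparison.

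Among the 789 other transcripts with a mean of at least 100 RPKM, those nearest to ACTB in their log2 ratios of DMSO and of BDE-209 to the control were SMARCB1 (distance 0.01, a subunit of the SWI/SNF chromatin remodeler) and RAC1 (0.01, a GTPase that acts on actin). Next came NR_026581 (0.01), which was tied to no symbol. Nearest to VIM were MRPL12, TUBG1 and ZNF703 (0.02, 0.02 and 0.03), and nearest to KRT8 were SRP9, YBX1 and TECR (each 0.01). The likeness rests on 3 samples and is a description. Counting error was not part of the distance. The interval of KRT8 ran from -0.52 to 0.61 for DMSO and from -0.65 to 0.52 for BDE-209 against the control. These intervals are far wider than the distances, so the neighbours of KRT8 are loosely placed. For DMSO against the control, the intervals of ACTB (-0.08 to -0.01) and VIM (-0.09 to 0.06) were also wider than their distances. The same limit holds for their neighbours.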

How the data were processed

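The authors aligned the reads to hg19 with SOAPaligner 2.21, allowing 2 mismatches. Only reads with 1 place in the genome were used, and the deposited lists, 1 for each of the 3 samples, hold RPKM. A transcript without a read is left out of a list and was taken as 0. How isoforms share reads is not given in the sources used here. Groups came from the treatment labels. With 1 sample a group, no test was run.

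The read total of a sample was recovered as the one at which its lowest RPKM values, read as 1 read each, give whole transcript lengths (mean cosine score 0.829 to 0.869, next best 0.125 to 0.141). Reads per transcript were then taken as the lowest whole counts that match its RPKM in the samples, at a length between 49 and 30000 bases. They were recovered for 25438 of 25443 transcripts and are lower bounds. Where they are too low, the counting interval is too wide. The shares of all transcripts with an interval wholly above or below 0 can then be too low. The procedure was also run on simulated counts drawn with the recovered lengths. That run cannot tell how often the lengths recovered from the real values are too short. Of the identifiers, 96.0% were tied to symbols through RefSeq. Log2 ratios used RPKM with 0.5 added. Members and lists were chosen with earlier results of these data known. Named were the 10 transcripts, up to 4 of each list by mean RPKM and those with the largest ratio in it, of which the text gives a part. Promoters and windows were searched by exact match. Alternatives covered pseudocount, scaling, fold and filter. Software was Python 3.11.15, numpy 2.4.6, pandas 2.3.3, scipy 1.17.1, numba 0.67.0 and matplotlib 3.10.9, with GENCODE 44 lifted to GRCh37. One marker of the blood list is not reported here.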

Additional observations from a re-analysis of the deposited data

How the results depend on the processing

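The alternatives were a pseudocount of 0 or 1 RPKM, equal RPKM totals, median-of-ratios size factors and a trimmed mean over protein-coding transcripts. All 150 recomputed ratios of the 10 transcripts kept their sign and stayed within their counting interval. A pseudocount added to both values cannot change a sign, so only the scalings could have done so. Scaling to the uniquely mapped reads reported by the study was not among them. The intervals themselves were not recomputed. Equal totals shift the log2 ratios against the control by 0.0123 for DMSO and 0.0254 for BDE-209. The upper interval end of ACTB in DMSO against the control (-0.0119) lay nearer to 0 than this. The same held for MYL6 (-0.0120) and KRT18 (-0.0158) in BDE-209 against the control. Moved by this shift, those intervals would hold 0, so the counts of intervals wholly below 0 depend on the scaling. With equal totals, the median of the 10 went from -0.03 to -0.02 for DMSO against the control and from -0.11 to -0.08 for BDE-209 against the control. Without TMSB4X and KRT8, each under 100 reads, a choice made after seeing the data, these medians moved further and the other way, to -0.05 and -0.14. At the 2-fold limit, 0 of the 10 passed in DMSO against the control and 0 in BDE-209 against the control, in place of 1 each. The share of all transcripts past a log2 ratio of 0.32 depended on the filter. Without one it was 21.8% for DMSO against the control, 21.2% for BDE-209 against DMSO and 22.1% for BDE-209 against the control, and at a mean of at least 100 RPKM it was 1.38%, 0.377% and 1.26%. No paired analysis was possible because each condition had 1 sample, and for the same reason no sample could be left out. Depth limits KRT8 and TMSB4X, with 41 to 59 reads a sample.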
